A study of Mus musculus with 18 samples.

Results

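The 10 genes described here, Vipr2, Insrr, Qsox1, Bace2, Slc12a8, Syt7, Myrip, Klf15, Tmem44 and 1810010D01Rik, were selected on their lower counts in mouse colon crypts labelled Ern2-/- than in wild-type (WT) crypts in every microbial state studied. They are 10 of the 24047 rows of the gene count table, 18217 of which were detected in some library. The values that chose them are those of the genotype comparison, which is therefore given as a description with no test, and their response to microbes was tested. The study sequenced mRNA from the colon crypts of C57BL/6 mice in 6 groups of 3 libraries each. CONV-WT and CONV-Ern2-/- mice were conventionally housed with a specific-pathogen-free microbiota, GF-WT and GF-Ern2-/- mice were germ free, and GF-Colonized-WT and GF-Colonized-Ern2-/- mice were germ free until a gavage of cecal contents from WT donors and were taken 14 days later. No tissue-specific driver is described for the Ern2 deletion, so it cannot be taken as limited to the crypts, and ages were not given in the labels. Nothing in the labels says which libraries came from littermates, so the spread between libraries of a group is the only error available.

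Ern2 encodes IRE1β, a sensor of unfolded protein in the endoplasmic reticulum whose kinase and RNase domains face the cytosol. It is made mainly in mucus-secreting epithelium, where goblet cells fold, cross-link and package large amounts of the mucin Muc2. RNase activity of this family splices Xbp1 mRNA, and XBP1 is a transcription factor for genes of protein folding and secretion. Among the 10 genes, Vipr2 and Insrr are cell surface receptors, Qsox1 forms disulfide bonds in the secretory pathway, and Bace2 is a membrane-bound aspartyl protease. Slc12a8 belongs to the cation-chloride cotransporter family, Syt7 is a calcium sensor for vesicle fusion, and Myrip links Rab27 on secretory granules to myosin. Klf15 is a zinc-finger transcription factor, and Tmem44 and 1810010D01Rik encode membrane proteins.

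Library totals ran from 5865619 to 23154481 counts, and the shallowest library was CONV-Ern2-/- replicate 3. The normalized count of Ern2 did not follow the label in every library. It was 998 to 1622 in CONV-Ern2-/- against 2089 to 3100 in CONV-WT, 2877, 386 and 3336 in GF-Ern2-/- against 2573, 1909 and 2439 in GF-WT, and 2567, 1325 and 1885 in GF-Colonized-Ern2-/- against 2695, 2412 and 2331 in GF-Colonized-WT. GF-Ern2-/- replicates 1 and 3 and GF-Colonized-Ern2-/- replicate 1 thus lay at WT levels, and these groups are called libraries labelled Ern2-/- for that reason. Gene counts show neither whether the counted reads lie in the deleted part nor whether labels were exchanged, and if labels were, the genotype and within-label values below would mix genotypes. Y-linked transcripts were present in 0 of 3 GF-WT, 1 of 3 CONV-WT, 3 of 3 CONV-Ern2-/- and 2 of 3 libraries of each other group, so sex and group were not balanced. All 8 epithelial markers had counts in every group, whereas the summed CPM (a library's counts scaled to a fixed total) of 14 smooth muscle and mesenchymal markers ranged from 3.72 to 37.2. The 8 distal Hox genes summed to 246 to 576 CPM in the GF libraries, 106 to 314 in GF-Colonized, 59.2 to 213 in CONV-WT and 10.4 to 119 in CONV-Ern2-/- CPM, and the part of this in the results below was not tested. CONV-WT replicate 3 stood apart: its 10 goblet markers summed to 6700 CPM against 39069 and 43937 in the other CONV-WT libraries.

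The genes lie on 8 chromosomes of the mm10 (GRCm38) genome, and all are annotated as protein coding in GENCODE M21. Chromosome 16 holds 3 of them, Tmem44 (chr16:30511855-30550842, minus strand), Slc12a8 (chr16:33517328-33664135, plus strand) and Bace2 (chr16:97356742-97442936, plus strand). The starts of Tmem44 and Slc12a8 are 3.01 Mb apart, and that of Bace2 is 63.8 Mb from Slc12a8. The uncharacterised 1810010D01Rik (chr7:145205825-145208119, minus strand), named Smim38 in RefSeq, lies 23.0 Mb from Ern2 itself (chr7:122169893-122186207, minus strand). The others are Vipr2 (chr12:116077726-116146261), Insrr (chr3:87796951-87816101), Syt7 (chr19:10389090-10453180), Myrip (chr9:120301513-120474841) and Klf15 (chr6:90462576-90475238), all on the plus strand, and Qsox1 (chr1:155776029-155812889) on the minus strand. An exon of a gene on the opposite strand overlaps Qsox1 and Syt7, and neither overlapping gene is a row of the count table.

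RefSeq (GRCm38.p6) start site windows matched 6 of the 10 genes, Vipr2, Qsox1, Slc12a8, Myrip, Klf15 and Tmem44, with 8 windows in all, 3 of them of Slc12a8. The windows of Myrip and Tmem44 and 1 of Slc12a8 overlap annotated exons. The 250 bases before the start were searched on both strands for TGACGTG, the core of the element that XBP1 binds; CCACG, the shorter motif of the endoplasmic reticulum stress element; CACGTG, the E-box; and GGGCGG, the GC box. TGACGTG was in 0 of the 8 windows and in 1.65% of 32851 windows of all genes, CCACG in 3 of 8 and in 28.3%, CACGTG in 1 of 8 and in 6.02%, and GGGCGG in 4 of 8 and in 32.7%. A further motif, CACCC, which Klf factors bind, was in 6 of 8 and in 52.0%. Every window of Slc12a8 held CACCC, so these are counts of windows and not of genes. The windows of Klf15 (chr6:90462326-90462575, plus strand), Qsox1 (chr1:155812900-155813149, minus strand) and Vipr2 (chr12:116077476-116077725, plus strand) are shown because these genes stand for the different patterns of response described below; capitals mark a match to any of the first 4 motifs on either strand, where CCACG and CACGTG can overlap.
Klf15: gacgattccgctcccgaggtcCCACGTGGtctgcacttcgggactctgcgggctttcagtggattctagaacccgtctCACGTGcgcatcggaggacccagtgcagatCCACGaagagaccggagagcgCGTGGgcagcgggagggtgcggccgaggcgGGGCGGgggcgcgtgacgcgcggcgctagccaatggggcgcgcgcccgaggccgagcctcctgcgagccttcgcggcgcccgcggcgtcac
Qsox1: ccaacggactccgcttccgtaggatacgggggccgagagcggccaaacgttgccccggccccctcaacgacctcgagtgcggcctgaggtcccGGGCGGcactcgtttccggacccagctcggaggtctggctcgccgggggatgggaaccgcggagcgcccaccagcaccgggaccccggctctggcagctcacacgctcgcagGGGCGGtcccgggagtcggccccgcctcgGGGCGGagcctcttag
Vipr2: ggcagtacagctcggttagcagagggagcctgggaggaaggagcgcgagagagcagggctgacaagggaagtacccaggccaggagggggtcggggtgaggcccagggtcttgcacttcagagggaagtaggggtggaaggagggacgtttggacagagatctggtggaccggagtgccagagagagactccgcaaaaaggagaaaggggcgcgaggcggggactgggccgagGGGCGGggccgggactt
Of the 3 windows shown, only that of Klf15 held CCACG and CACGTG, whereas of the first 4 motifs Qsox1 and Vipr2 held only GC boxes. CACCC was in the windows of Klf15 and Vipr2 and not in that of Qsox1. A match is a stretch of letters and no evidence of binding.

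The receptors were low in abundance and lower in every library labelled Ern2-/- than in any WT library of the same state. The normalized count of Vipr2, which encodes the VPAC2 receptor for vasoactive intestinal peptide, was 85.8, 99.8 and 38.3 in CONV-WT and 27.2, 15.6 and 8.28 in CONV-Ern2-/-. It was 23.8, 28.7 and 24.3 in GF-WT against 15.7, 2.01 and 12.5 in GF-Ern2-/-, and 90.6, 75.7 and 97.6 in GF-Colonized-WT against 42.7, 29.7 and 45.1 in GF-Colonized-Ern2-/-. The groups of a state did not overlap in any of the 3 states, and the log2 fold change of the libraries labelled Ern2-/- against WT was -2.05 (SE 0.60), -1.33 (SE 0.67) and -1.17 (SE 0.28) in CONV, GF and GF-Colonized. Insrr, the insulin receptor-related receptor, an alkali-sensing tyrosine kinase, had normalized counts of 86.8, 133 and 74.9 in CONV-WT and 31.3, 24.4 and 35.9 in CONV-Ern2-/-. It stood at 325, 180 and 233 in GF-WT against 139, 51.1 and 152 in GF-Ern2-/-, and at 124, 135 and 158 in GF-Colonized-WT against 61.2, 33.3 and 55.2 in GF-Colonized-Ern2-/-. These groups did not overlap either, with log2 fold changes of -1.70 (SE 0.42), -1.10 (SE 0.42) and -1.48 (SE 0.27). The related receptors gave smaller differences over the same libraries: Vipr1 had log2 fold changes of 0.22, -0.03 and -0.30, Insr of 0.33, -0.18 and 0.08, and Igf1r of -0.42, -0.50 and -0.17.

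**Figure D1:**
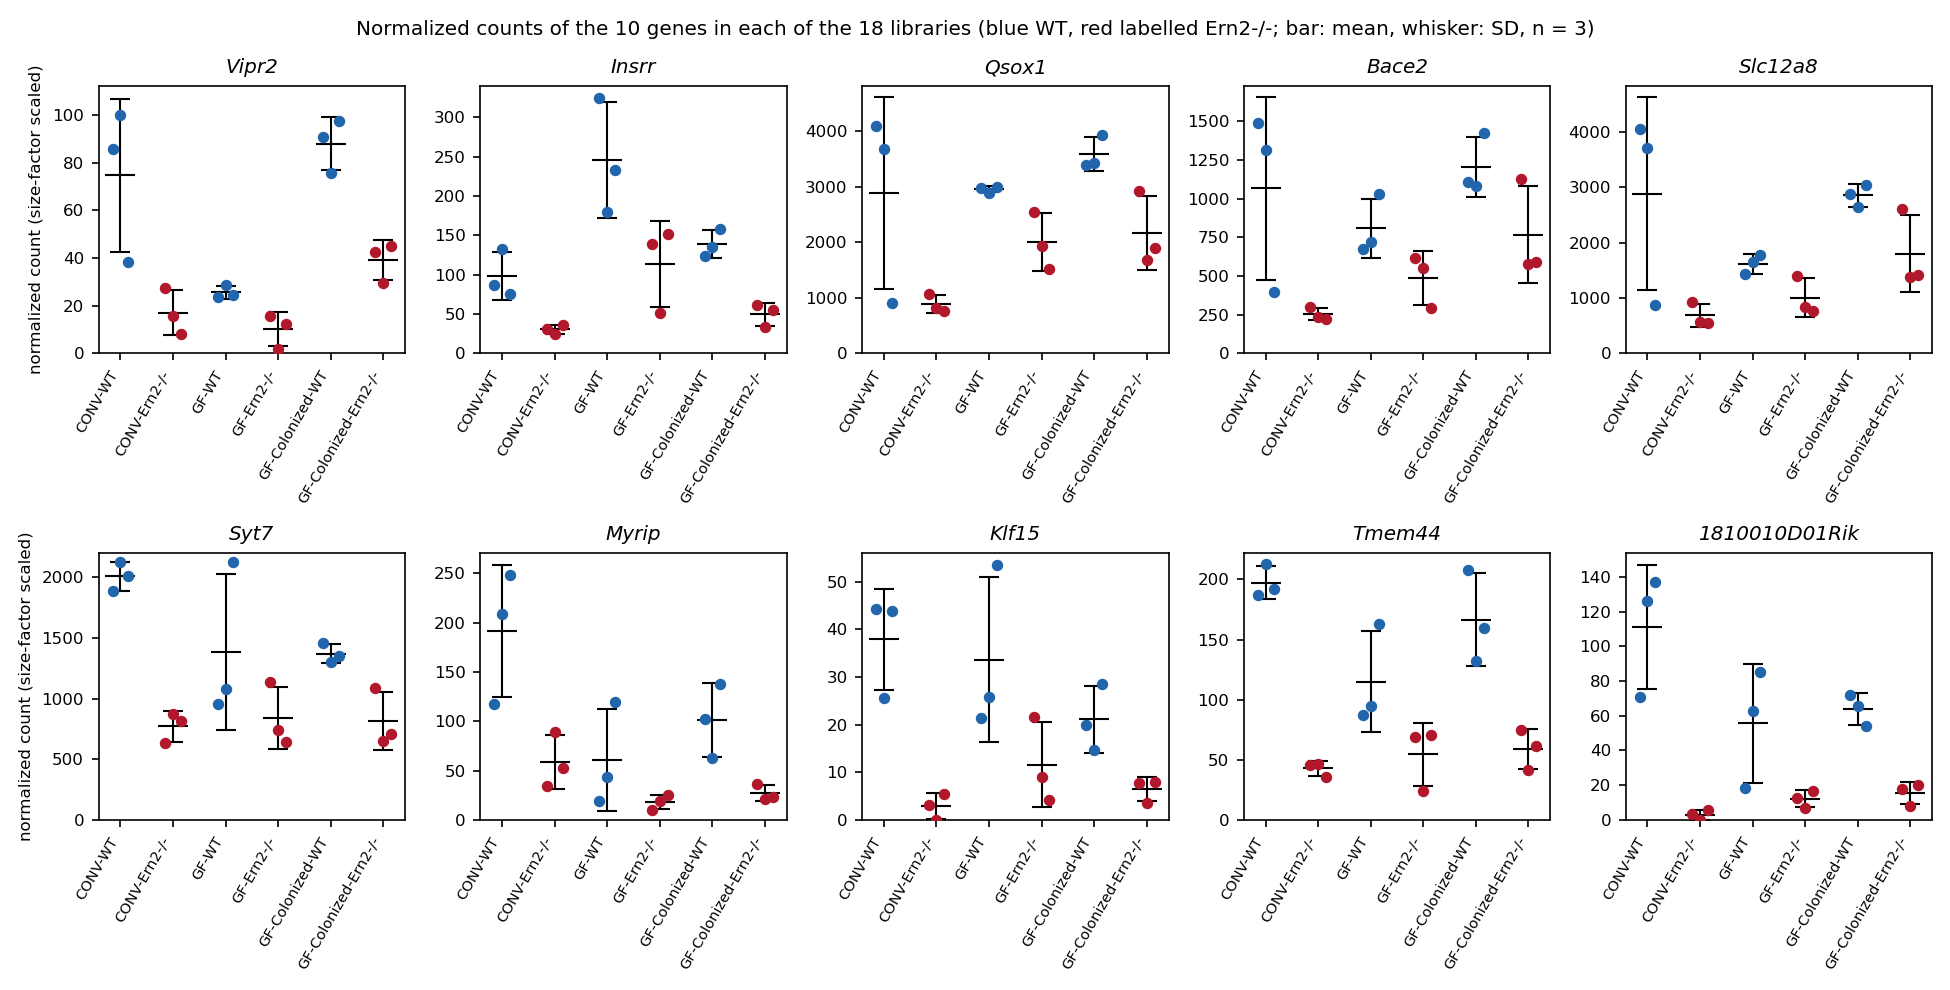
Normalized counts (vertical axis, linear from 0) of the 10 genes in each library of the 6 groups (horizontal axis); points are libraries, the bar is the mean and the whisker the SD of 3 libraries. WT libraries (blue) lie mostly above those labelled Ern2-/- (red), and the low CONV-WT point of Qsox1, Bace2 and Slc12a8 is replicate 3.

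Qsox1, Bace2 and Slc12a8 were abundant, and their difference between the labels was largest in the CONV state. Qsox1, the sulfhydryl oxidase, had normalized counts of 4092, 3679 and 908 in CONV-WT and 1077, 820 and 764 in CONV-Ern2-/-. It was at 2977, 2896 and 3002 in GF-WT against 2549, 1941 and 1512 in GF-Ern2-/-, and at 3393, 3428 and 3944 in GF-Colonized-WT against 2926, 1690 and 1893 in GF-Colonized-Ern2-/-. CONV-WT replicate 3 lay within the CONV-Ern2-/- range, and the other states did not overlap. Bace2, a relative of the β-secretase Bace1, had 1488, 1316 and 393 in CONV-WT and 297, 236 and 223 in CONV-Ern2-/-. Its values were 676, 717 and 1027 in GF-WT against 618, 552 and 292 in GF-Ern2-/-, and 1107, 1080 and 1423 in GF-Colonized-WT against 1129, 580 and 593 in GF-Colonized-Ern2-/-, where replicate 1, a library with a WT level of Ern2, overlapped WT. Slc12a8 had 4044, 3711 and 875 in CONV-WT against 924, 571 and 555 in CONV-Ern2-/-, with replicate 3 of CONV-WT again within the other group. Its values were 1425, 1641 and 1784 in GF-WT against 1403, 838 and 766 in GF-Ern2-/-, and 2871, 2640 and 3036 in GF-Colonized-WT against 2598 in replicate 1, 1419 in replicate 3 and a mean of 1799 ± 693 (SD, n = 3) in GF-Colonized-Ern2-/-. In CONV the log2 fold changes were -1.70 (SE 0.52) for Qsox1, -2.08 (SE 0.49) for Bace2 and -2.07 (SE 0.54) for Slc12a8. In GF they were -0.56 (SE 0.23), -0.72 (SE 0.32) and -0.69 (SE 0.27), and in GF-Colonized -0.73 (SE 0.20), -0.65 (SE 0.25) and -0.67 (SE 0.23). The family members Qsox2 (-0.31, 0.12 and -0.29) and Bace1 (-0.62, -0.61 and -0.00) showed log2 fold changes of no more than 0.62 in size in the 3 states, and Slc12a2, the basolateral Na-K-Cl cotransporter, gave -1.02 (SE 0.61) in CONV.

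Of the genes of granule traffic, Syt7 was abundant and Myrip scarce. Syt7 had normalized counts of 1890, 2127 and 2009 in CONV-WT against 630, 875 and 814 in CONV-Ern2-/-, 953, 1077 and 2124 in GF-WT against 1133, 743 and 644 in GF-Ern2-/-, and 1456, 1300 and 1351 in GF-Colonized-WT against 1089, 647 and 704 in GF-Colonized-Ern2-/-. Only the GF groups overlapped, and the log2 fold changes were -1.38 (SE 0.20), -0.72 (SE 0.36) and -0.76 (SE 0.20) in CONV, GF and GF-Colonized. Myrip had 117, 209 and 248 in CONV-WT against 34.5, 88.9 and 52.4 in CONV-Ern2-/-, 19.2, 43.4 and 119 in GF-WT against 10.4, 19.1 and 25 in GF-Ern2-/-, and 102, 63.2 and 138 in GF-Colonized-WT against 36.3, 21.6 and 23.1 in GF-Colonized-Ern2-/-. Again the overlap was in GF, and the log2 fold changes of -1.73 (SE 0.48), -1.74 (SE 0.67) and -1.89 (SE 0.37) were within an SE of each other. The Rab27 genes, whose products Myrip binds, gave -0.87 (SE 0.51), -0.43 and -0.08 for Rab27a and -0.96 (SE 0.42), -0.24 and 0.13 for Rab27b.

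Klf15 and 1810010D01Rik were nearly undetected in CONV-Ern2-/-. Klf15 had normalized counts of 44.3, 25.7 and 43.8 in CONV-WT and 3.13, 0 and 5.52 in CONV-Ern2-/-, from 97 and 5 counts in all. It was at 21.5, 25.9 and 53.5 in GF-WT against 21.6, 9.02 and 4.17 in GF-Ern2-/-, which overlapped, and at 20, 14.7 and 28.6 in GF-Colonized-WT against 7.83, 3.6 and 8.02 in GF-Colonized-Ern2-/-. The ratio of summed counts, WT over Ern2-/- label and scaled by size factors, was 13.1 (exact 95% counting interval 5.43 to 41.3) in CONV, 2.67 (1.88 to 3.87) in GF and 3.19 (1.99 to 5.3) in GF-Colonized. 1810010D01Rik had 70.7, 126 and 137 in CONV-WT and 3.13, 0 and 5.52 in CONV-Ern2-/-, from 278 and 5 counts. Its other values were 18.4, 63 and 85.4 in GF-WT against 12.7, 7.02 and 16.7 in GF-Ern2-/-, and 72, 65.4 and 54 in GF-Colonized-WT against 17.8, 8.1 and 20.1 in GF-Colonized-Ern2-/-, with no overlap in any state. Its ratios were 37.6 (15.9 to 117), 4.69 (3.34 to 6.73) and 4.17 (3.1 to 5.7), and these intervals cover counting error only. Tmem44 had 187, 213 and 192 in CONV-WT against 45.9, 46.7 and 35.9 in CONV-Ern2-/-, 87.6, 94.6 and 163 in GF-WT against 68.6, 24.1 and 70.9 in GF-Ern2-/-, and 208, 132 and 160 in GF-Colonized-WT against 74.8, 41.4 and 61.2 in GF-Colonized-Ern2-/-. Its groups did not overlap in any state, and the log2 fold changes were -2.18 (SE 0.30), -1.07 (SE 0.46) and -1.50 (SE 0.28). Klf4, Klf5 and Klf9, the family members of Klf15 followed here, had log2 fold changes between -0.14 and 0.21 in the 3 states.

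**Figure D2:**
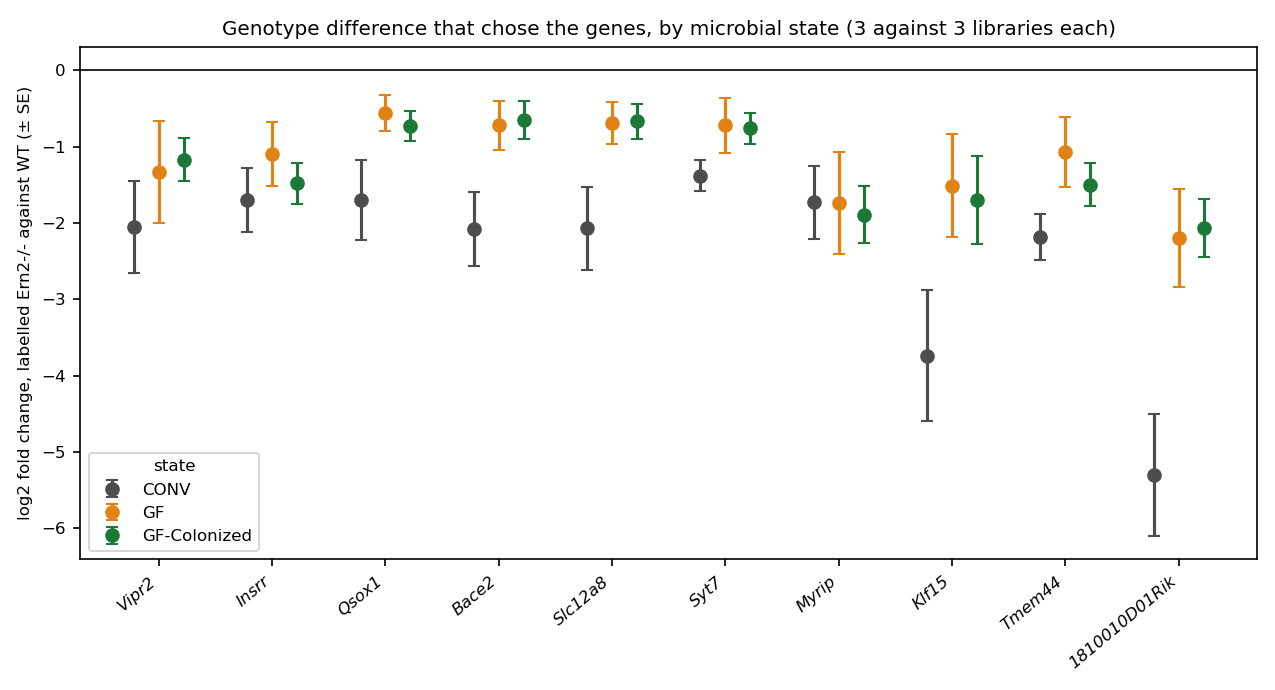
Log2 fold change (vertical axis, points; whiskers SE) of the libraries labelled Ern2-/- against WT for the 10 genes (horizontal axis) in the CONV, GF and GF-Colonized states, 3 against 3 libraries each. All 30 points are below 0 because the genes were selected on this, and the CONV points of Klf15 (-3.74) and 1810010D01Rik (-5.30) lie lowest.

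Between genes, levels were compared per kilobase of annotated exon. In CONV-WT the mean normalized count per kilobase was 648 ± 392 (SD, n = 3) for Slc12a8, 349 ± 209 for Qsox1, 268 ± 15.9 for Syt7 and 135 ± 74.7 for Bace2. It was 87 ± 27.8 for 1810010D01Rik, 34.6 ± 12.2 for Myrip, 22.2 ± 1.59 for Tmem44, 17.2 ± 5.41 for Insrr, 16.7 ± 7.22 for Vipr2 and 13.6 ± 3.81 for Klf15. The wide spread of Slc12a8, Qsox1 and Bace2 comes from replicate 3. The genes were counted in the same libraries, so overlap of these spreads does not show that 2 genes had the same level. In these bulk libraries fewer cells of a type and less RNA per cell cannot be told apart.

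Counted over all genes, the pattern that chose the 10 was not confined to them. The libraries labelled Ern2-/- lay below every WT library for 8 of the 10 genes in CONV (all but Qsox1 and Slc12a8), where 11.5% of 12441 genes with a mean normalized count of at least 10 did so. They did for 7 of 10 in GF (all but Klf15, Myrip and Syt7), against 3.1% of genes, and for 9 of 10 in GF-Colonized (all but Bace2), against 14.0%. Vipr2, Insrr, Tmem44 and 1810010D01Rik did so in all 3 states, as did 56 other genes, together 0.482% of those counted, and a lower mean in all 3 states was found for 17.0%. Ranked by the smallest of the 3 drops in group mean, 1810010D01Rik was at 3 (log2 ratio of means -1.99), Myrip at 5 (-1.68), Klf15 at 10 (-1.46), Vipr2 at 14, Insrr at 19, Tmem44 at 23, Syt7 at 62, Slc12a8 at 78, Bace2 at 82 and Qsox1 at 110 (-0.56). Genes that are not among the 10 ranked ahead of most of them, led by Lamb1 (-2.35) and B3gnt6 (-2.30). Since this contrast chose the genes, nothing is read from these counts.

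Libraries within a label differed along with Ern2 for some genes and not others, but which genes these were depended on 1 library. GF-Ern2-/- replicate 2, whose Ern2 count of 386 was the lowest of the 18 libraries, had the lowest value of its group for Vipr2, Insrr, Tmem44 and 1810010D01Rik, and a middle value for Qsox1, Bace2, Slc12a8, Syt7, Klf15 and Myrip. GF-Colonized-Ern2-/- replicate 1, with Ern2 at 2567, had the highest of its group for Qsox1, Bace2, Slc12a8, Syt7, Tmem44, Insrr and Myrip. Without the 3 libraries whose Ern2 level went against the label, the GF log2 fold change was -3.68 for Vipr2, -2.27 for Insrr and -2.26 for Tmem44, which rests on 1 library labelled Ern2-/-. That library held 2 counts of Vipr2, 51 of Insrr and 24 of Tmem44. With group means taken off, the correlation with Ern2 over the 18 libraries was 0.82 for Insrr, 0.80 for Tmem44 and 0.72 for Vipr2, and at most 0.27 for the other genes. These values rest largely on GF-Ern2-/- replicate 2, without which they were 0.57, 0.44 and 0.10. Without it Qsox1, Bace2, Syt7 and Slc12a8 had 0.44, 0.43, 0.40 and 0.37 with Ern2. Myrip had 0.22, and Klf15 and 1810010D01Rik -0.11 each, so the division of the genes seen over the 18 libraries did not hold. With the log2 library total as a covariate, the GF log2 fold changes shrank to -0.33 for Klf15, -0.25 for Qsox1, -0.12 for Bace2, -0.26 for Slc12a8 and -0.09 for Syt7. With sex as a covariate they were -3.00 for Klf15, -0.95 for Qsox1, -1.45 for Bace2 and -1.06 for Slc12a8, values set by GF-Ern2-/- replicate 3 as the only library of its group without Y-linked transcripts, like every GF-WT library. That of Myrip in CONV was -1.03 in such a fit, where CONV-WT replicate 1 is the only WT library with Y-linked transcripts.

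The response to microbes was asked first of colonization, GF-Colonized against GF. Over both labels, in a fit with the genotype label as a term (6 against 6 libraries), Vipr2 rose by 1.84 on the log2 scale (SE 0.25, DESeq2 adjusted p = 7.23e-12) and Slc12a8 by 0.84 (SE 0.19, adjusted p = 7.37e-05), while Insrr fell with -0.99 (SE 0.26, adjusted p = 0.000719). These 3 of 10 genes passed an adjusted p threshold of 0.01, which 26.0% of the 14108 genes tested passed in either direction. The quasi-likelihood test of edgeR called Vipr2 (adjusted p = 0.000591) and Slc12a8 (0.00317) and left Insrr at 0.0103. Leaving out any 1 of the 12 libraries kept all 3 calls, but without the libraries against the label in a fit of all groups Insrr (-0.68, adjusted p = 0.0278) and Slc12a8 (0.86, 0.0631) no longer passed. With all 18 libraries in 1 fit Slc12a8 had 0.83 with an adjusted p of 0.0478. Bace2 had 0.62 (SE 0.22, adjusted p = 0.0158; 1.76e-06 with the library total as a covariate), Myrip 0.68 (SE 0.39) and Klf15 -0.75 (SE 0.41), none past the threshold in the fit without covariates, and Qsox1 and Syt7 had 0.20 and -0.03.

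Within the labels, which share their libraries with the comparison that chose the genes, colonization gave like values. In WT, Vipr2 was at most 28.7 in the GF libraries and at least 75.7 in the colonized ones, a rise of 1.79 on the log2 scale (SE 0.29, adjusted p = 3.48e-08). Slc12a8 rose by 0.83 (SE 0.14, adjusted p = 1.99e-07) and Insrr fell with -0.81 (SE 0.25, adjusted p = 0.00694), so 3 of 10 passed where 17.8% of genes did; edgeR called Vipr2 and Slc12a8. The Insrr call held in 1 of 6 fits that left out a library, with adjusted p up to 0.0668 without GF-Colonized-WT replicate 1, and the others held in 6 of 6. With all 18 libraries in 1 fit neither Slc12a8 (0.82, adjusted p = 0.172) nor Insrr (-0.82, 0.101) passed, at folds of about the same size. With sex as a covariate they had 0.72 (0.02) and -0.85 (0.24), from GF-Colonized-WT replicate 2 as the only colonized library that, like all of GF-WT, lacked Y-linked transcripts. The goblet marker sum was also higher after colonization of WT, from 13660 to 20556 CPM in GF-WT to 23728 to 30104 in GF-Colonized-WT, and ranged from 6984 to 15752 in GF-Ern2-/- and from 10886 to 21147 in GF-Colonized-Ern2-/-, with all 10 markers detected in each. The markers did not all move 1 way. Of the 10, 5 rose and 2 fell in WT and over both labels, and 3 rose and 1 fell in the libraries labelled Ern2-/-. Their part in the rise of Slc12a8 and Vipr2 was not tested. Nor was that of other cell types, whose genes moved with colonization over both labels: 7 of 10 enteroendocrine markers rose (median 1.16; 1 in WT and 6 in the libraries labelled Ern2-/-), and 192 of 458 tested enterocyte signature genes fell and 17 rose (median -0.47). Without GF-WT replicate 3, the GF-WT library with the highest Bace2, Myrip, Syt7 and Tmem44, 6 genes passed. In the libraries labelled Ern2-/-, 0 of 10 passed by DESeq2, where 7.65% of genes did, and 0 of the 9 that the edgeR filter kept, and 3 had an unadjusted p under 0.05 by each tool. The log2 fold changes there were 1.94 (SE 0.63, adjusted p = 0.0203) for Vipr2, 0.84 (SE 0.33) for Slc12a8 and -1.19 (SE 0.46) for Insrr. This count was not stable: Vipr2 passed with all 18 libraries in 1 fit (1.93, adjusted p = 0.00144). It had 4.22 without the libraries against the label, where GF-Ern2-/- replicate 2, with 2 counts of Vipr2, alone stands for its group. Slc12a8 passed with the library total as a covariate (0.00175) and without GF-Ern2-/- replicate 1 (1.16, 0.00945), and Insrr without GF-Ern2-/- replicate 2 (-1.53, 0.00024). The difference in response between the labels was not tested, because it is made of the contrasts that chose the genes.

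**Figure D3:**
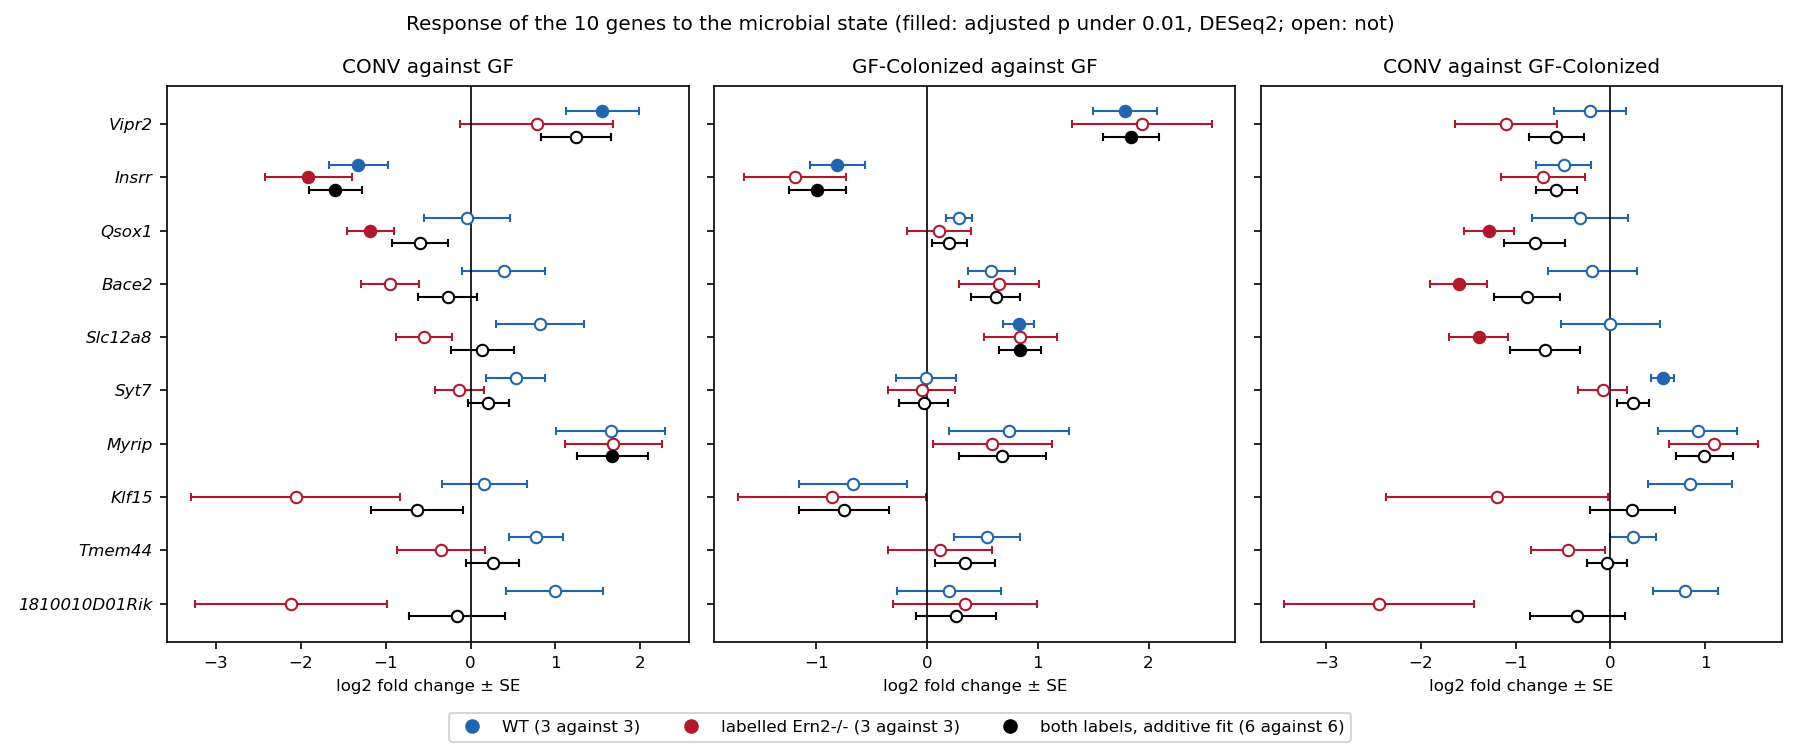
Log2 fold change (horizontal axes, points; whiskers SE) of the 10 genes (vertical axis) in the 3 comparisons of microbial states, in WT (blue), in libraries labelled Ern2-/- (red) and over both labels (black). Filled points passed an adjusted p of 0.01; Vipr2 lies to the right and Insrr to the left in both comparisons with GF, and the red points of Qsox1, Bace2 and Slc12a8 lie left of the blue ones in both comparisons that involve CONV.

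Conventional housing against the germ-free state shifted Insrr the same way and Myrip upwards. Over both labels Insrr fell, by a log2 value of -1.59 (SE 0.31, adjusted p = 7.33e-06; edgeR 0.00388) and Myrip rose with 1.67 (SE 0.42, adjusted p = 0.000804; edgeR 0.0167), and both calls held in 12 of 12 fits that left out a library. With the library total as a covariate neither passed, with -1.51 (adjusted p = 0.0182) for Insrr and 1.06 (0.296) for Myrip. These were 2 of 10 genes, where 15.4% of all genes passed. Vipr2 had 1.24 (SE 0.41, adjusted p = 0.0154), and 2.05 (0.00184) with that covariate. It also passed with all 18 libraries in 1 fit (1.29, adjusted p = 0.000818) and in 3 of 12 fits that left out a library. Smooth muscle and mesenchymal markers were higher in CONV: 5 of 12 tested passed and rose, with Des at 3.67 and Col3a1 at 3.39, and the sum of all 14 was 4.80 to 37.2 CPM in the CONV libraries against 4.19 to 8.63 in GF, where Col1a2 and Lum were at 0 in GF-WT. The immune markers Igj (4.52) and Ptprc (1.30), 2 of 12 tested, and the endothelial marker Plvap (1.76), 1 of 3, rose as well. The summed immune markers were at 39.8 to 80.6 CPM in CONV and 32.7 to 61.7 in GF, and the endothelial ones at 4.6 to 10.2 and 5.68 to 11.5. Signature genes of epithelial cell types moved too. Of 460 tested enterocyte genes 112 fell and 10 rose (median -0.34), of 482 tuft genes 90 rose and 38 fell, and of 396 goblet genes 42 fell and 28 rose. The part of these markers and signature genes in the results was not tested. The distal Hox sum was mostly lower in GF-Colonized and CONV than in GF, as was Insrr, and its part in that result was not tested; within groups the correlation of Insrr with it was 0.14. In WT, Vipr2 rose with 1.55 (SE 0.43, adjusted p = 0.00379) and Insrr fell with -1.32 (SE 0.35, adjusted p = 0.00245), 2 of 10 genes against 11.0% of all, and edgeR called 0 of the 10, with 4 at an unadjusted p under 0.05. Those calls held in 1 and 3 of 6 fits that left out a library: Vipr2 reached 0.115 without CONV-WT replicate 2 and Insrr 0.0501 without GF-WT replicate 1. With sex as a covariate they had 0.0583 and 0.0336, and with the library total Insrr had 0.166, while Slc12a8 (2.30, adjusted p = 5.96e-18), Bace2 (1.75, 1.8e-08) and Qsox1 (1.33, 0.00114) passed, Qsox1 with its sign turned. Without CONV-WT replicate 3, Slc12a8 (adjusted p = 7.06e-13), Bace2 (0.00404) and Qsox1 (0.00996) passed in this comparison, all higher under conventional housing. Among the libraries labelled Ern2-/-, Insrr fell with -1.91 (SE 0.51, adjusted p = 0.00568) and Qsox1 with -1.18 (SE 0.28, adjusted p = 0.000978), 2 of 10 genes against 4.1% of all. There edgeR called 0 of the 8 genes its filter kept, with 4 at an unadjusted p under 0.05, and the DESeq2 calls held in 1 and 3 of 6 fits, with adjusted p up to 0.109 and 0.0324 without GF-Ern2-/- replicate 1. With the library total as a covariate Insrr had an adjusted p of 0.304 and Qsox1 -0.71 (0.417), with sex Insrr had 0.0645, and with all 18 libraries in 1 fit Qsox1 had -1.17 (0.0244). Bace2 had -0.95 (SE 0.34, adjusted p = 0.0615), and it passed with sex as a covariate (-1.21, 0.00151) and without GF-Ern2-/- replicate 3 (-1.21, 0.000971). Without the libraries against the label Insrr had -0.75 (0.328) and Qsox1 -1.13 (0.159), again with 1 GF-Ern2-/- library. Myrip had 1.68 (SE 0.57, adjusted p = 0.0478) in this label and 1.65 (SE 0.64, adjusted p = 0.0535) in WT. The goblet marker sum was 6984 to 15752 CPM in GF-Ern2-/- and 4236 to 5596 in CONV-Ern2-/-. Between these groups 4 of 10 goblet markers fell and 1 rose, and 34 of 396 goblet signature genes fell and 4 rose. Their part in the fall of Qsox1 was not tested.

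The states with microbes were also compared with each other, CONV against GF-Colonized. Over both labels 0 of 10 genes passed by DESeq2 or edgeR, where 1.34% of genes did by DESeq2, and 4 had an unadjusted p under 0.05 by each tool, with Myrip at 0.99 (SE 0.30, adjusted p = 0.0291). In WT, Syt7 was higher in CONV by 0.55 (SE 0.12, adjusted p = 0.00639), the only 1 of the 10 to pass where 0.108% of all genes did, but edgeR gave 0.685 and called 0 of the 10, with 3 at an unadjusted p under 0.05, and the call held in 1 of 6 fits, with an adjusted p of 0.999 without GF-Colonized-WT replicate 2. The call was also lost in the fits with sex (0.51), with library totals (0.03) and with all 18 libraries (0.782). In the libraries labelled Ern2-/-, Qsox1, Bace2 and Slc12a8 were all lower in CONV, with log2 fold changes of -1.28 (SE 0.26, adjusted p = 3.84e-05), -1.60 (SE 0.30, adjusted p = 1.01e-05) and -1.39 (SE 0.31, adjusted p = 0.000263). These were 3 of 9 genes, where 8.59% of all passed, with the adjusted p of Klf15 not given by the tool. The edgeR test gave 0.0233, 0.0209 and 0.0337 and called 0 of the 8 genes its filter kept (without the filter 2 of the 3 passed, Qsox1 and Bace2, with Slc12a8 at 0.0138), with 5 at an unadjusted p under 0.05, and the DESeq2 calls held in 6 of 6, 6 of 6 and 5 of 6 fits that left out a library. Slc12a8 was lost without GF-Colonized-Ern2-/- replicate 1 (adjusted p = 0.012). The CONV-Ern2-/- libraries were shallower, with 5865619 to 15419844 counts against 14046576 to 20231830 in GF-Colonized-Ern2-/-. With the library total as a covariate none of the 3 passed, at -0.83 (adjusted p = 0.0884) for Qsox1, -1.10 (0.0718) for Bace2 and -0.72 (0.231) for Slc12a8. With all 18 libraries in 1 fit Qsox1 (0.018) and Slc12a8 (0.0197) did not pass. In a fit of all groups without the libraries against the label the adjusted p values were 0.134, 0.0622 and 0.15. The goblet marker sum moved with these values, from 10886 to 21147 CPM in GF-Colonized-Ern2-/- to 4236 to 5596 in CONV-Ern2-/- with all 10 markers detected in each group, as did other cell types: 5 of 10 enteroendocrine markers fell (median -1.57; Sst -2.44, Gcg -1.84, Tac1 -2.65), while 98 of 448 tested enterocyte signature genes rose and 9 fell (median 0.39). The part of these in the results was not tested. The same 3 genes in WT had -0.32 (SE 0.51), -0.19 (SE 0.47) and 0.00 (SE 0.52). These WT values depend on CONV-WT replicate 3, without which Qsox1 had 0.10 and Bace2 0.21, and adding library totals to the fit gave 0.86 (adjusted p = 0.00183), 0.84 (0.016) and 1.21 (1.31e-06) for Qsox1, Bace2 and Slc12a8.

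Other genes of the members' pathways were followed as lists, whose counts are to be read against the share of all genes that passed: 17.8% with colonization of WT, 7.65% with colonization in the libraries labelled Ern2-/-, 8.59% in CONV-Ern2-/- against GF-Colonized-Ern2-/- and 26.0% with colonization over both labels. Of 26 genes of the endoplasmic reticulum regulated by XBP1, 18 rose with colonization of WT mice (median log2 fold change 0.62, against -0.01 over all genes), led by Manf (1.42), Kdelr3 (1.41) and Creld2 (1.69), which serve folding and retention in the endoplasmic reticulum. In the libraries labelled Ern2-/-, 10 rose (median 0.54), among them the degradation factor Derl3 (3.34) and the chaperone Hyou1 (1.44), and 12 were lower in CONV-Ern2-/- than in GF-Colonized-Ern2-/- (median -0.75), among them the chaperone Hspa5 (-1.03). Of 24 tested genes of disulfide formation beside Qsox1, 9 rose and 1 fell with colonization over both labels (median 0.36), led by the mucin-folding isomerase Agr2 (1.54), Pdia4 (1.12) and Pdia6 (1.08). Of 39 tested genes of regulated exocytosis, 3 rose and 8 fell in that comparison (median -0.13), a share near that of all genes: Rph3al, a Rab effector, rose by 0.78 and Myo7a, the myosin partner of Myrip, by 0.74, while Cadps2, a priming factor for dense-core vesicles, fell with -0.84. Of 11 tested synaptotagmins beside Syt7, 2 rose and 1 fell, among them Syt13 (1.23, SE 0.38) and Syt6 (-1.66, SE 0.53).

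Around the receptors and the other members, the lists of VIP and insulin receptor signalling, secretases and Klf genes had shares of called genes near or below the 26.0% of all genes. Of these, 1 of 12 tested genes of VIP receptor signalling passed with colonization over both labels, the kinase subunit Prkacb, which fell with -0.85 (SE 0.20), while in CONV against GF Vipr1 fell with -0.65 (SE 0.19, adjusted p = 0.00381). Of 17 tested genes of insulin receptor signalling, 3 passed with colonization and fell: Insr (-0.55, SE 0.11, adjusted p = 5.33e-06), Foxo3 (-0.84, SE 0.18) and Pik3ca (-0.33, SE 0.09). The adaptor Irs1 was lower in CONV than in GF over both labels, at -2.68 (SE 0.44, adjusted p = 1.06e-07). Of 13 tested secretase and substrate genes, 4 passed with colonization and fell, among them Ncstn (-0.56) and Aph1a (-0.43) of the γ-secretase complex. Of 15 tested Klf genes beside Klf15, 4 passed and fell, among them Klf4 (-0.73, SE 0.14), Klf8 (-1.07) and Klf16 (-0.39). Glucocorticoid-induced genes, a class to which Klf15 belongs, passed in 6 of 16 cases, all lower, with Mt1 at -1.68 (SE 0.21), Mt2 at -2.07 and Zbtb16 at -2.23. Clock genes fell in 8 of 14 cases and rose in 2, among them Nr1d1 (-2.64), Nr1d2 (-1.96) and Nfil3 (1.41), beside the -0.75 of Klf15, which did not pass; the part of either class in the level of Klf15 was not tested.

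The 10 genes stood at different levels in CONV-WT replicate 3, a library chosen after its values were seen. As a percent of the mean of replicates 1 and 2, this library held 23.4% of Qsox1, 28.0% of Bace2 and 22.6% of Slc12a8, beside 22.8%, 18.0% and 17.6% in the CONV-Ern2-/- mean. Muc2, the main mucin of goblet cells, was at 12.1% there and at 11.6% in CONV-Ern2-/-, while the goblet transcripts Spink4 (33.4% and 15.5%) and Retnlb (25.1% and 3.81%) were less reduced in this library than in CONV-Ern2-/-. In the same library Syt7 was at 100%, Tmem44 at 95.9%, Klf15 at 125%, 1810010D01Rik at 139% and Myrip at 152%, whereas in CONV-Ern2-/- these were at 38.5%, 21.4%, 8.24%, 2.93% and 35.9%. Insrr at 68.0% and Vipr2 at 41.3% lay between, and Ern2 was at 67.4%. It was the shallowest of the CONV-WT libraries.

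**Figure D4:**
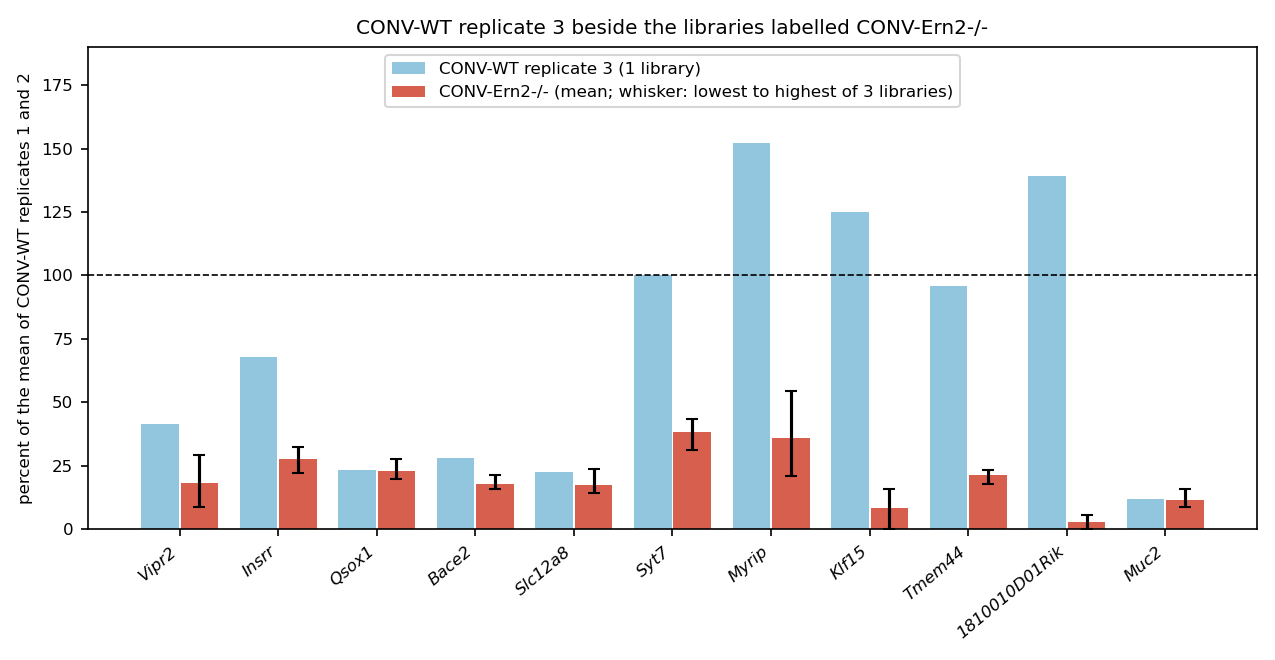
Level of the 10 genes and Muc2 (horizontal axis) in CONV-WT replicate 3 (light blue, 1 library) and in CONV-Ern2-/- (red; mean, whisker from the lowest to the highest of 3 libraries) as a percent of the mean of CONV-WT replicates 1 and 2 (vertical axis from 0; dashed line 100%). Qsox1, Bace2, Slc12a8 and Muc2 are low in both, and the blue bars of Syt7, Tmem44, Klf15, 1810010D01Rik and Myrip stand near or above the line.

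Correlations were also taken in the spread within groups, from which the difference between the labels is removed, though not any difference among libraries of 1 label that differ in Ern2. Over the 18 libraries with group means taken off, Pearson's r of log2(normalized count + 1) was 0.98 for Qsox1 and Slc12a8, 0.94 for Qsox1 and Bace2 and 0.93 for Bace2 and Slc12a8, and 0.94, 0.89 and 0.83 without CONV-WT replicate 3. It was 0.72 for Vipr2 and Tmem44, 0.67 for Vipr2 and Insrr, 0.63 for Insrr and Tmem44, 0.61 for Klf15 and 1810010D01Rik and 0.54 for Myrip and Syt7, and of similar size for pairs across these groups of genes, with 0.59 for Vipr2 and Slc12a8, 0.54 for Tmem44 and Syt7 and 0.50 for Vipr2 and Qsox1. Without GF-Ern2-/- replicate 2 the first 3 of these pairs had 0.35, 0.27 and 0.20, while Vipr2 had 0.76, 0.78 and 0.68 with Qsox1, Slc12a8 and Bace2. Of the 10 pairs among Syt7, Tmem44, Klf15, 1810010D01Rik and Myrip, 9 were positive, from -0.06 for Klf15 and Myrip to 0.61. Over the 9 WT libraries, where the microbial state enters, r was 0.90 for Tmem44 and Myrip, 0.89 for Myrip and 1810010D01Rik, 0.87 for Myrip and Syt7 and 0.84 for Tmem44 and Syt7, beside 0.85 to 0.96 among Qsox1, Bace2 and Slc12a8. There Insrr had -0.70, -0.72 and -0.72 with Tmem44, Myrip and 1810010D01Rik, and 29 of 45 pairs were positive (median 0.26). Over the 9 libraries labelled Ern2-/- Myrip had -0.14, -0.70 and -0.05 with Tmem44, 1810010D01Rik and Syt7, and Tmem44 had 0.35 with Syt7. In that label 35 of 45 pairs were positive (median 0.35). Over the 18 libraries with group means taken off, the median of all 45 pairs was 0.28 (range -0.25 to 0.98, 36 positive), against 0.65 with group means left in, where the choice of the genes enters. Within groups Qsox1, Bace2 and Slc12a8 had r of 0.96, 0.94 and 0.92 with the goblet marker sum and of 0.75, 0.74 and 0.81 with the library total, while Syt7 had 0.34 and 0.11, Klf15 0.11 and 0.19, 1810010D01Rik -0.23 and 0.01 and Myrip -0.16 and -0.28. Without CONV-WT replicate 3 the r with the goblet marker sum was 0.85, 0.88 and 0.72 for Qsox1, Bace2 and Slc12a8, and it was higher for Syt7 (0.68) and Klf15 (0.39). Over the 18 libraries Vipr2 had 0.40 with the goblet marker sum and 0.52 with the library total, Insrr 0.28 and 0.07 and Tmem44 0.14 and 0.15. Without GF-Ern2-/- replicate 2 these were 0.64 and 0.83 for Vipr2, 0.43 and 0.13 for Insrr and 0.24 and 0.27 for Tmem44. The points share depth and normalization, so the values are a description. A goblet cell signature of 396 other genes, taken from the study's single-cell reference lists, holds Qsox1, Bace2, Slc12a8 and Syt7 as well, and none of the 10 is in its enterocyte, stem, enteroendocrine or tuft signatures. The median genotype log2 fold change of that signature was -0.46, -0.06 and -0.11 in CONV, GF and GF-Colonized, and that of the 10 goblet markers was -2.21, -0.57 and -0.87.

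**Figure D5:**
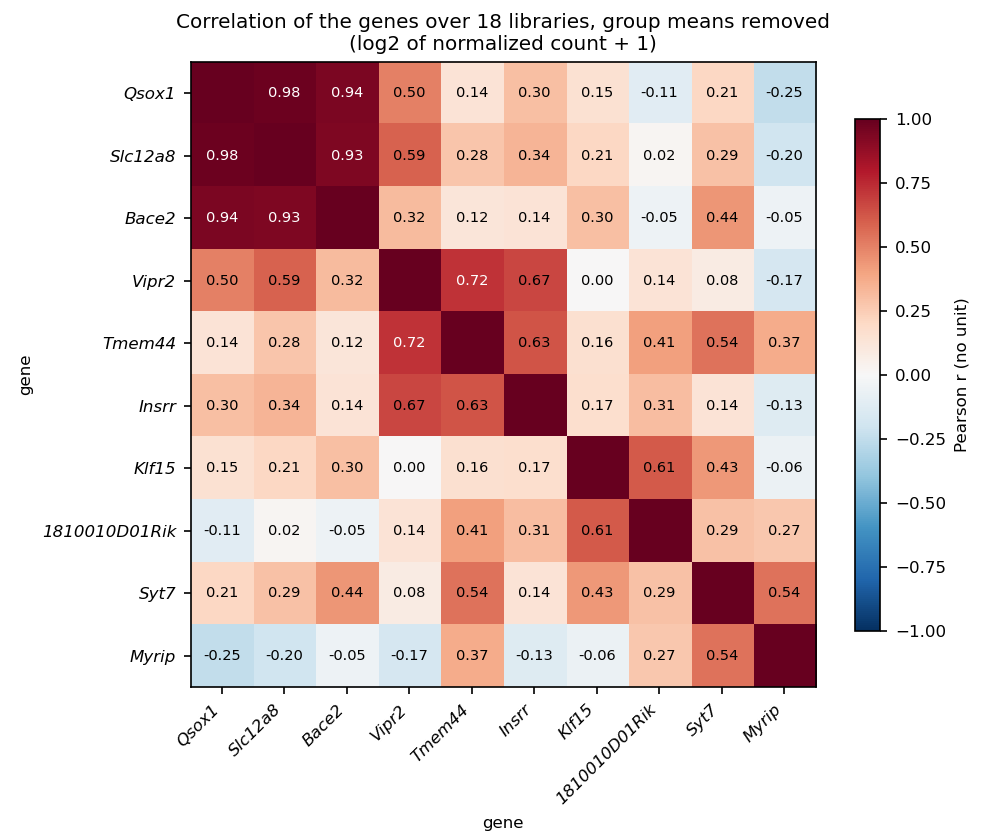
Pearson's r (colour and printed value, no unit) between the 10 genes (both axes) over 18 libraries with group means taken off. The block of Qsox1, Slc12a8 and Bace2 holds values of 0.93 to 0.98 and the block of Vipr2, Tmem44 and Insrr values of 0.63 to 0.72, which fall to 0.20 to 0.35 without GF-Ern2-/- replicate 2, and Myrip is near or below 0 with Qsox1, Slc12a8 and Bace2. Without that library Vipr2 has 0.68 to 0.78 with Qsox1, Slc12a8 and Bace2.

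Of 10845 other genes with a mean normalized count of at least 50, those most like each member over the 18 libraries included some shared ones. Creb3l4 was among the nearest of Qsox1 and Bace2 (r = 0.96 and 0.97), and the mucin-type glycosyltransferase Galnt10 among those of Slc12a8 (0.99) and Bace2 (0.95). Pde2a (0.98) and Tspan13 (0.96) followed for Slc12a8, Kit (0.96) and Slc38a10 (0.95) for Qsox1, and Ptprn2 (0.97) stood beside Creb3l4 for Bace2. Syt7 was nearest to Smim14 (0.92), Mlph (0.90), which like Myrip encodes a Rab27 effector, and Dixdc1 (0.89). Myrip was nearest to the muscarinic receptor Chrm3 (0.92), the crypt antimicrobial Ang4 (0.88) and Neurl1a (0.87), and Vipr2 to Etv5 (0.94), Amotl1 (0.92) and Rapgef3 (0.92), a cAMP-activated exchange factor. Tmem44 was nearest to Rap1gap, Tacc1 and Efcab4a (each 0.94), and 1810010D01Rik shared Tacc1 and Efcab4a (each 0.89) after Asrgl1 (0.91). Asrgl1 was also the nearest gene of Klf15 (0.84), followed by Kdm8 (0.83) and Get4 (0.82), and Insrr was nearest to 9330162012Rik (0.91), Tbc1d8 (0.90) and Pacs1 (0.89). These values contain the genotype difference, as do those of any gene lower in the libraries labelled Ern2-/-.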

How the data were processed

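RNA was measured in 18 libraries of colon crypts by stranded mRNA sequencing (75 cycles, single end). The authors aligned reads with STAR to mm10 within the VIPER pipeline and deposited whole-number read counts per gene, not normalized; tool versions, the gene annotation and the strand setting used in counting are not given in the sources used here. Samples were grouped by their labels, 3 libraries per group, and no 2 libraries held identical counts. Of the symbols, 27 had been turned into dates in the deposited table and were left as they stood; none is reported.

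Counts were tested with DESeq2 1.42.0 in R 4.3.3 (Wald test, design by group, or genotype label plus state; Benjamini-Hochberg adjusted p under 0.01 over all genes, as independent filtering left them) in 9 comparisons of microbial state, and with the edgeR 4.0.16 quasi-likelihood test as an alternative. Normalized counts are counts divided by DESeq2 size factors over the 18 libraries; CPM are counts scaled by a library's total. Correlations used log2(normalized count + 1) and, for the nearest genes, genes with a mean of at least 50. Both fitting scripts were tested on simulated data, in which DESeq2 recovered more of the changed genes than edgeR but made many more false calls, most of all with 3 against 3 libraries and also where no gene was changed, so a DESeq2 call within a label that edgeR did not make is the less certain. The simulation changed 200 of 24047 genes and drew on the GF and GF-Colonized libraries only. Its shares of false and missed calls therefore need not hold for the data. The named genes are the 10 members, Ern2, fixed family members, the 3 nearest genes of each member and up to 3 called genes per list with the smallest adjusted p. Some genes that this rule names are not reported here. The members and lists were chosen with earlier results of these data known. The precision of each value is limited by 3 libraries per group and, for the scarcest genes, by counting. Positions come from GENCODE M21 and start site windows from RefSeq. Tables were made with pandas 2.3.3 and SciPy 1.17.1 and figures with matplotlib 3.10.9. Alternatives were other size factors, filters and thresholds, covariates, the replicate block, all groups in 1 fit and leaving out libraries. Correlations without GF-Ern2-/- replicate 2 or CONV-WT replicate 3 were added after seeing the data.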

Additional observations from a re-analysis of the deposited data

How the results depend on the processing

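The genotype values that chose the genes kept their direction in all alternatives, which is close to given because the same libraries chose them. In the alternatives 13 of these values moved in size. With the library total as a covariate those of Syt7, Bace2 and Klf15 in GF shrank to -0.09, -0.12 and -0.33. The counts of genes without overlap (8, 7 and 9) stayed within 1.5 times. The counts of the 10 genes called in a response were small and moved. With edgeR, filtered or not, 0 passed in CONV-WT against GF-WT, CONV-WT against GF-Colonized-WT and CONV-Ern2-/- against GF-Ern2-/-, 0 filtered and 2 unfiltered in CONV-Ern2-/- against GF-Colonized-Ern2-/-, and 1 in CONV against GF over both labels. With sex as a covariate 0, 1 and 0 passed in CONV-WT against GF-WT, GF-Colonized-WT against GF-WT and CONV-WT against GF-Colonized-WT. With the library total as a covariate 4 passed in CONV-WT against GF-WT, 2 in CONV-WT against GF-Colonized-WT, 0 in CONV-Ern2-/- against GF-Ern2-/-, 1 in GF-Colonized-Ern2-/- against GF-Ern2-/-, 0 in CONV-Ern2-/- against GF-Colonized-Ern2-/- and 1 in CONV against GF over both labels. With all 18 libraries in 1 fit, the count was 1 in GF-Colonized-WT against GF-WT, 0 in CONV-WT against GF-Colonized-WT and 1 in each comparison within the Ern2-/- label. Without the libraries against the label these were 1, 0, and 0, 1 and 0, and over both labels 1 passed in GF-Colonized against GF. At an adjusted p under 0.05, 1 passed in GF-Colonized-Ern2-/- against GF-Ern2-/- and 1 in CONV against GF-Colonized over both labels. Leaving out 1 library gave 0 to 5 in CONV-WT against GF-WT, 2 to 6 in GF-Colonized-WT against GF-WT, 0 to 1 in CONV-WT against GF-Colonized-WT, 0 to 2 in CONV-Ern2-/- against GF-Ern2-/-, 0 to 1 in GF-Colonized-Ern2-/- against GF-Ern2-/-, 3 to 5 in GF-Colonized against GF and 0 to 1 in CONV against GF-Colonized over both labels. The cause of these shifts was not tested.

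The direction of Qsox1 turned with the library total as a covariate, to 1.33 in CONV-WT against GF-WT and 0.86 in CONV-WT against GF-Colonized-WT, and without CONV-WT replicate 3, to 0.39 in the former, where leaving out 1 library gave -0.38 to 0.39. Syt7 turned to 0.44 in GF-Colonized-WT against GF-WT without GF-WT replicate 3, with a range of -0.22 to 0.44 over the libraries left out. Replicate numbers were not taken to pair the samples, since in no comparison were all correlations of same-numbered deviations over 0.1. With 3 libraries per group this cannot exclude a pairing. Single correlations reached 0.63 in GF-Ern2-/- against GF-WT and 0.49 in GF-Colonized-Ern2-/- against GF-Ern2-/-, both for replicate 1. The replicate block gave 0 calls in CONV-WT against GF-Colonized-WT, 1 in CONV-Ern2-/- against GF-Ern2-/- and 1 in GF-Colonized-Ern2-/- against GF-Ern2-/-, and moved no other count by over 1.5 times. It exchanged genes within a count: in CONV-WT against GF-WT Vipr2 was lost (adjusted p = 0.0178) and Myrip gained (7.02e-05), and in GF-Colonized-WT against GF-WT Insrr was lost (0.0186) and Bace2 gained (0.000334). Depth limits Klf15 and 1810010D01Rik, with 5 counts each in CONV-Ern2-/-. It also limits Vipr2, with 2 to 21 counts per library in GF-Ern2-/- and 3 to 26 in CONV-Ern2-/-.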
